A study of Mus musculus with 6 samples.

Results

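Genes of bone morphogenetic protein (BMP) signaling and tumor dormancy were examined in spheroids of D2A1, a mouse mammary tumor cell line, cultured with Matrigel. They were 10 genes, taken from the table of 54146 genes by symbol: the protease gene Bmp1, the ligand gene Bmp4, the receptor genes Bmpr1a and Bmpr2, the antagonist gene Grem1, the inhibitory SMAD gene Smad6, the target genes Id1, Id2 and Id3, and the nuclear receptor gene Nr2f1. All 10 genes were found, and 8 of the 10 reached the level at which genes were tested. The spheroids were grown in DMEM with 10% FBS and given 50 nM of recombinant SLURP1 (rSLURP1), a secreted protein of the Ly6 family, or 50 nM of recombinant GST (rGST) as control protein. Harvest was on the fifth day. RNAseq was run on 3 libraries of each treatment. All 6 libraries come from this one cell line without host cells, and no label states that libraries of a treatment were separate cultures, so the p-values measure the spread between these libraries, which may be technical.

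BMP ligands bind pairs of type I and type II serine/threonine kinase receptors, which phosphorylate SMAD1, SMAD5 and SMAD9. These enter the nucleus with SMAD4 and switch on target genes, among them the ID genes and the feedback inhibitors Smad6 and Smad7. ID proteins lack a DNA-binding region and hold E proteins away from DNA, and they are known for keeping cells undifferentiated and cycling. NR2F1 (COUP-TF1) is an orphan nuclear receptor known for its part in tumor cell dormancy, in which retinoic acid receptors and SOX9 also act. BMP signals have been described as keeping disseminated breast cancer cells dormant, and secreted BMP antagonists as waking them.

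The values are TPM (transcript abundances corrected for length and set to a fixed sum per library). Genes with at least 1 TPM in at least 3 libraries (12301 genes) entered limma as log2(TPM + 1), a scale that understates the change of low genes. A gene was called at a Benjamini-Hochberg adjusted p-value of 0.05 or less. Over these genes the log2 fold change (rSLURP1 minus rGST) had a median of -0.33, which became -0.0012 once each library was scaled by its median ratio. The share of called genes that were lower with rSLURP1 was 87.1% as deposited and 49.2% after this scaling. Small decreases are therefore given beside their value after median-ratio scaling.

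The sharpest contrast lay within the targets and NR2F1. Id1 and Id3 rose 2.95-fold and 3.26-fold in mean TPM with rSLURP1, Smad6 fell 2.86-fold and Nr2f1 5.81-fold. Bmp4 and Grem1 were near 0 in both treatments, and the rGST level of Bmp1, Bmpr1a and Bmpr2 was 1.13 to 1.22 times the rSLURP1 level as deposited, with the sign turning to the other side after median-ratio scaling. As deposited, 5 of the 8 tested genes were called lower and 2 were called higher, against 58.5% of all tested genes called lower and 8.66% called higher. At a fold change of at least 2, Smad6 and Nr2f1 were lower and Id1 and Id3 higher, against 7.06% of all tested genes lower and 1.15% higher. After median-ratio scaling, 2 were called lower (25.2% of all tested genes) and 3 higher (26.0%), since Bmp1 then lay on the higher side. When each library was corrected for the length and GC content of transcripts, 2 were called lower (21.9% of all tested genes) and 5 higher (27.0%), with Bmp1, Bmpr1a and Bmpr2 on the higher side. In spheroids measured in bulk, fewer cells with a transcript and less of it per cell cannot be told apart.

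**Figure D1:**
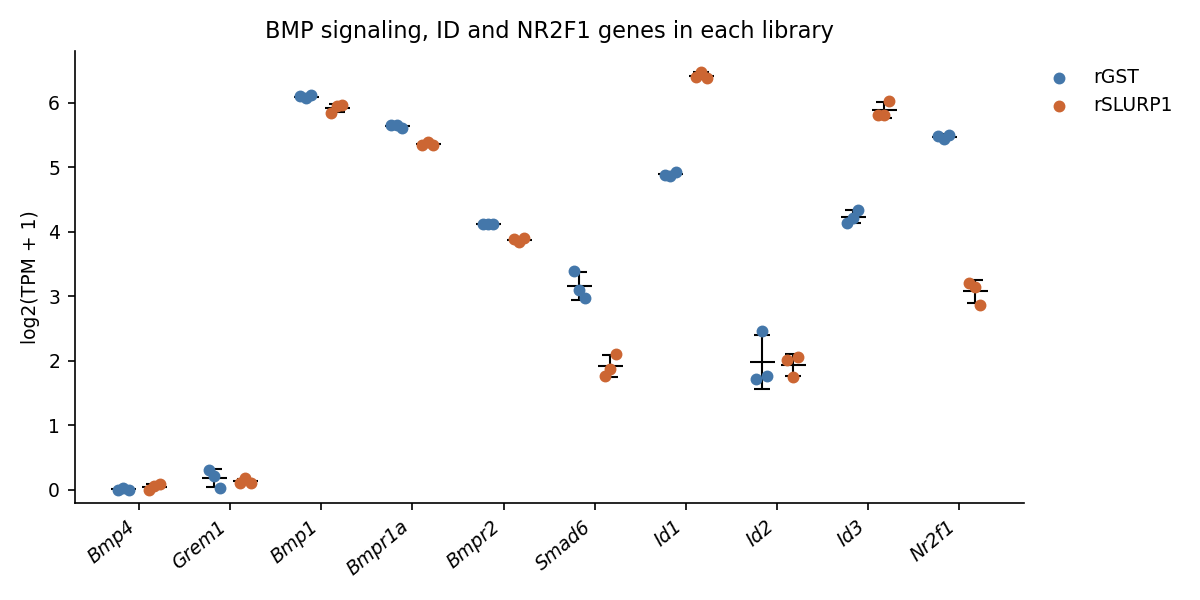
Level of each of the 10 genes in each library, as log2(TPM + 1), with rGST in blue and rSLURP1 in orange. Points are libraries (n = 3 a treatment), and the black bar and whiskers are the mean and SD. The treatments do not overlap for Bmp1, Bmpr1a, Bmpr2, Smad6, Id1, Id3 and Nr2f1, and they overlap for Bmp4, Grem1 and Id2.

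The 3 rSLURP1 libraries lay below all 3 rGST libraries for Bmp1, Bmpr1a, Bmpr2, Smad6 and Nr2f1, a separation found in 61.7% of all tested genes. For Id1 and Id3 they lay above, which was so for 9.75% of all tested genes. An exact permutation test of 3 libraries against 3 cannot give a two-sided p-value under 0.1, and it gave 0.1 for each of these 7 genes.

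Ligand and antagonist come first in the pathway. Bmp4 (ENSMUSG00000021835.15, GRCm38 chr14:46383520-46390669, minus strand), a ligand of BMPR1A and BMPR2, was listed at 0, 0.02 and 0 TPM with rGST and at 0, 0.04 and 0.06 TPM with rSLURP1. Grem1 (ENSMUSG00000074934.3, chr2:113746164-113758646, minus strand), a secreted protein that traps BMP2 and BMP4, was at 0.23, 0.16 and 0.02 TPM with rGST and at 0.07, 0.13 and 0.08 TPM with rSLURP1. Both were far below 1 TPM in every library and were not tested. TPM keeps no read depth, so whether such values stand for a few reads cannot be read from them. When all genes with any TPM were fitted, the adjusted p-value in limma was 0.442 for Bmp4 and 0.647 for Grem1.

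The other ligand genes were as low. Of 14 BMP and GDF ligand genes listed for the pathway, 13 stayed below 1 TPM in all 6 libraries, and 6 of them were at 0 throughout. The single tested ligand gene was Gdf5, named here after its values were seen, which passed through its rGST libraries alone. It was at 1.48, 2.08 and 1.19 TPM with rGST and at 0.35, 0.41 and 0.33 TPM with rSLURP1.

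Bmp1 (ENSMUSG00000022098.10, chr14:70474558-70520234, minus strand) is named with the BMPs but encodes a tolloid-like metalloprotease, which cuts procollagen and the BMP antagonist chordin. Its level was 67.6, 66.0 and 68.1 TPM with rGST and 56.2, 60.4 and 61.3 TPM with rSLURP1. The treatments did not overlap, yet the log2 fold change was -0.18 as deposited (limma, adjusted p = 0.0128, SE 0.049) and 0.17 after median-ratio scaling (adjusted p = 0.0149), so its direction turned with the scaling. Pcolce, which encodes an enhancer of procollagen cutting by BMP1, fell from 895 ± 35.3 TPM to 339 ± 16.7 TPM (SD, n = 3 each), for a log2 fold change of -1.40 (limma adjusted p = 8.22e-07), and of -1.04 after the length and GC correction. Pcolce2 was at 10.4 ± 2.77 and 6.08 ± 2.21 TPM (SD, n = 3 each) and was not called. Its log2 fold change was -0.71 as deposited and -0.39 after median-ratio scaling (limma adjusted p = 0.0506 and 0.288). The protease genes Tll1 and Tll2 were listed at 0 in every library.

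The receptor genes stayed close to the median of all genes. Bmpr1a (ENSMUSG00000021796.15, chr14:34410734-34503341, minus strand), a type I receptor, was at 49.1, 49.2 and 47.9 TPM with rGST and at 39.5, 41.0 and 39.5 TPM with rSLURP1. Bmpr2 (ENSMUSG00000067336.6, chr1:59763400-59879014, plus strand), the type II receptor of BMPs, was at 16.3, 16.4 and 16.3 TPM with rGST and at 13.7, 13.3 and 13.9 TPM with rSLURP1. Replicates were tight for both, and every rSLURP1 library lay below every rGST library. The log2 fold change of Bmpr1a was -0.28 (limma, adjusted p = 0.00103, SE 0.045) as deposited and 0.067 (adjusted p = 0.193) after median-ratio scaling. For Bmpr2 it was -0.24 (limma, adjusted p = 0.0087, SE 0.061) as deposited and 0.089 (adjusted p = 0.272) after median-ratio scaling. Relative to the median of all tested genes, the values were 0.046 and 0.082. The ratio of Bmpr1a to Bmpr2 TPM within a library, which no scaling of the library changes, was 2.99 ± 0.039 with rGST and 2.93 ± 0.138 with rSLURP1 (n = 3 each, SD, exact permutation test, two-sided p = 0.6).

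The co-receptor genes Rgmb and Rgma had the lowest log2 fold changes of the receptor list. Of 11 receptor and co-receptor genes, 8 were tested, 6 were called lower as deposited and none higher, and after median-ratio scaling 3 were called lower and 1, Acvr2a, higher. Over all tested genes the shares were 58.5% lower and 8.66% higher as deposited, and 25.2% and 26.0% after this scaling. Rgmb and Rgma encode membrane-anchored co-receptors that raise the response of cells to BMPs. Rgmb fell from 119.8, 130.6 and 122.2 TPM to 13.9, 15.4 and 14.1 TPM, a log2 fold change of -3.02 (limma, adjusted p = 1.13e-07, SE 0.059). Rgma fell from 61.2, 53.1 and 60.1 TPM to 11.95, 15.3 and 14.6 TPM, a log2 fold change of -1.99 (limma, adjusted p = 4.36e-06). Both stayed lower after median-ratio scaling, at -2.68 and -1.65. Acvr1, a further type I receptor gene, fell by 0.65 on the log2 scale as deposited and by 0.30 after median-ratio scaling, and Eng, which encodes endoglin, was called lower as deposited (log2 fold change -0.56, limma adjusted p = 0.0266) and not after this scaling (adjusted p = 0.123). The type II receptor genes Acvr2a and Acvr2b, named after their values were seen, were not called as deposited, with 95% intervals of the log2 fold change from -0.10 to 0.31 and from -0.64 to 0.36.

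Some antagonist genes other than Grem1 were expressed. Of 17 antagonist genes, 7 were tested, and 5 were called lower and none higher as deposited, where 58.5% of all tested genes were lower. After median-ratio scaling 4 were lower and 3 higher, against 25.2% and 26.0% of all tested genes. Fst (follistatin, which binds activins and some BMPs) fell from 21.6, 20.1 and 14.6 TPM to 2.53, 4.99 and 4.49 TPM. The rGST level of Fst was 4.69 times the rSLURP1 level (limma adjusted p = 1.67e-04). Bmper, a secreted BMP-binding protein, fell from 10.9 ± 1.15 to 2.08 ± 0.347 TPM (SD, n = 3 each), for a log2 fold change of -1.96 (limma adjusted p = 1.35e-05). Crim1, a membrane protein that binds BMPs, and Chrd, which encodes chordin, fell by 1.33 and 1.27 on the log2 scale. After median-ratio scaling the values of these 4 antagonist genes lay between -1.69 and -0.98. The values of Twsg1, Fstl3 and Dand5, named after their values were seen, lay between -0.20 and -0.020 as deposited and between 0.15 and 0.31 after median-ratio scaling. Dand5 (Coco), an antagonist known from the outgrowth of dormant breast cancer cells in the lung, was at 5.11 ± 0.499 TPM with rGST and 5.01 ± 0.200 TPM with rSLURP1 (SD, n = 3 each).

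**Figure D2:**
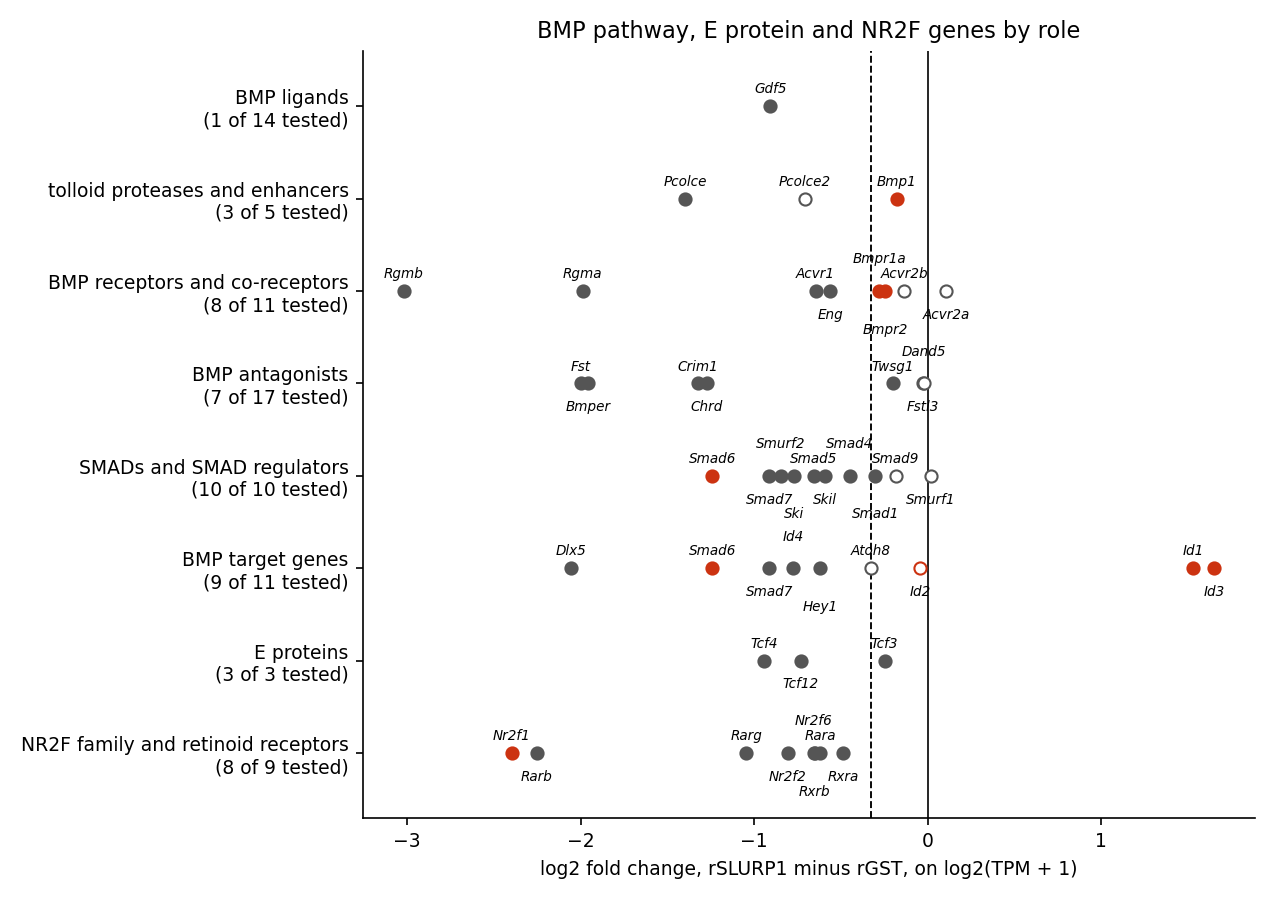
Log2 fold change (rSLURP1 minus rGST, on log2(TPM + 1), as deposited) of every tested gene of 8 lists, 1 list a row. Red points are among the 10 genes, filled points were called (adjusted p of 0.05 or less in limma), and the dashed line is the median of all tested genes at -0.33. Id1 and Id3 stand at 1.53 and 1.65 to the right of 0. Bmp1, Bmpr1a and Bmpr2 stand between the dashed line and 0 and change side after median-ratio scaling.

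Most SMAD genes were measured at moderate levels, but Smad9 was near 1 TPM, at 1.20 TPM with rGST and 0.94 TPM with rSLURP1 (means). All 10 genes of the SMADs and their regulators were tested, and 8 were called lower and none higher as deposited, against 6 lower and 1 higher (Smurf1) after median-ratio scaling. Among all tested genes 58.5% were lower and 8.66% higher as deposited, and 25.2% and 26.0% after this scaling. Smad6 (ENSMUSG00000036867.7, chr9:63953076-64022059, minus strand), an inhibitory SMAD that BMP signaling switches on and that blocks BMP receptors in turn, was at 9.49, 7.52 and 6.87 TPM with rGST and at 2.41, 2.65 and 3.28 TPM with rSLURP1. The lowest rGST library was more than 2 times the highest rSLURP1 library. The log2 fold change of Smad6 was -1.24 (limma, adjusted p = 2.11e-04, SE 0.145), and it was -0.95 after median-ratio scaling (adjusted p = 0.00143) and -0.85 after the length and GC correction (adjusted p = 0.0022).

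Smad7, the other inhibitory SMAD gene, was at 12.7, 17.9 and 16.5 TPM with rGST and at 6.89, 8.40 and 8.19 TPM with rSLURP1, again without overlap. Its log2 fold change was -0.91 as deposited and -0.59 after median-ratio scaling (limma adjusted p = 6.89e-04 and 0.00776). Smurf2, a ubiquitin ligase that acts on SMADs and their receptors, and Ski, a SMAD corepressor, fell by 0.85 and 0.77 on the log2 scale, and by 0.50 and 0.43 after median-ratio scaling. The BMP signal transducers had smaller values. Smad5 had a log2 fold change of -0.66 as deposited and -0.32 after median-ratio scaling (adjusted p = 0.00363), and Smad1 had -0.30 as deposited and 0.035 after this scaling (adjusted p = 0.682). Smad1, Smad5, Smad9 and Smurf1 were named after their values were seen. RNA levels do not show the phosphorylation of SMADs, which was not measured here.

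Id1 and Id3, the target genes most often used to read BMP signaling, went the other way. Id1 (ENSMUSG00000042745.9, chr2:152736251-152737410, plus strand) was at 28.4, 28.2 and 29.5 TPM with rGST and at 83.0, 88.2 and 82.4 TPM with rSLURP1. Id3 (ENSMUSG00000007872.3, chr4:136143497-136145755, plus strand) was at 16.6, 17.5 and 19.2 TPM with rGST and at 55.1, 54.9 and 64.0 TPM with rSLURP1. The lowest rSLURP1 library was more than 2 times the highest rGST library in both genes. Id1 rose 2.95-fold in mean TPM (log2 fold change 1.53, limma, adjusted p = 5.72e-07, SE 0.049), and Id3 rose 3.26-fold (log2 fold change 1.65, limma, adjusted p = 3.92e-06, SE 0.081). Counted from the highest log2 fold change, Id3 was gene 51 and Id1 gene 73 of the 12301 tested.

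Id2 (ENSMUSG00000020644.9, chr12:25093799-25097140, minus strand) was not called. It was at 2.30, 4.51 and 2.39 TPM with rGST and at 3.05, 2.35 and 3.16 TPM with rSLURP1, and the treatments overlapped. Its log2 fold change was -0.04 (limma adjusted p = 0.872), with a 95% interval from -0.55 to 0.46, below the values of Id1 and Id3. After median-ratio scaling the value was 0.22, with an interval from -0.29 to 0.73. Id4, outside the 10 genes and named after its values were seen, fell from 2.49, 2.85 and 3.05 TPM to 1.37, 0.97 and 1.32 TPM (log2 fold change -0.78, limma adjusted p = 0.00192, and -0.55 after median-ratio scaling). Id1 and Id3 together made up 88.8% ± 2.34 of the TPM of the 4 ID genes with rGST and 97.2% ± 0.448 with rSLURP1 (n = 3 each, SD).

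**Figure D3:**
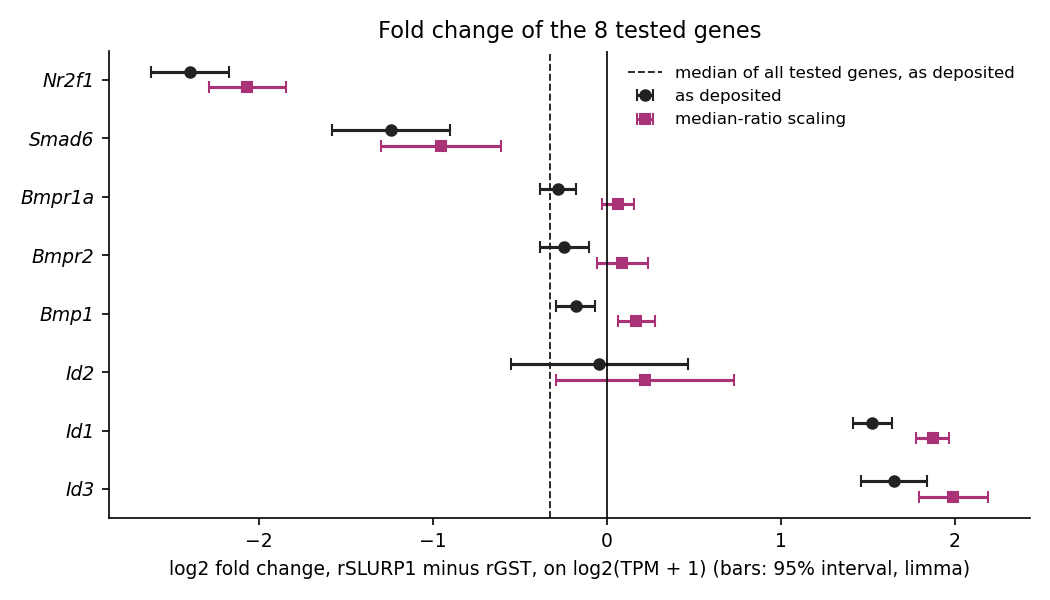
Log2 fold change (rSLURP1 minus rGST) of the 8 tested genes with its 95% interval from limma, as deposited (black circles) and after median-ratio scaling (purple squares). The dashed line is the median of all tested genes as deposited, -0.33. Nr2f1 and Smad6 lie below 0 and Id1 and Id3 above 0 in both, whereas Bmpr1a, Bmpr2 and Bmp1 change side.

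Promoter windows from RefSeq (GRCm38.p6, 250 bases before to 50 bases after a start site) were matched for 8 of the 10 genes, all but Bmp1 and Id1. They were searched on both strands for GGCGCC, a GC-rich element bound by SMAD1 and SMAD5 that reads the same on both strands, for CAGAC, a SMAD-binding element, and for AGGTCA, the core site of NR2F and retinoid receptors. Of all 32851 windows of this length, 11.9% held GGCGCC, 49.6% held CAGAC and 16.3% held AGGTCA. The windows of Id3, which rose, Id2, which was not called, and Smad6, which fell, are shown 5′ to 3′ on the strand of the gene, to set 3 BMP target genes with different values side by side. Capitals mark the searched elements. The Id3 window (chr4:136143572-136143871, plus strand) held CAGAC at 2 places, at one of them on the other strand, where it reads GTCTG, the Id2 window (chr12:25096043-25096342, minus strand) held GGCGCC at 1 place, and the Smad6 window (chr9:64022010-64022309, minus strand) held none of the 3 elements.
Id3: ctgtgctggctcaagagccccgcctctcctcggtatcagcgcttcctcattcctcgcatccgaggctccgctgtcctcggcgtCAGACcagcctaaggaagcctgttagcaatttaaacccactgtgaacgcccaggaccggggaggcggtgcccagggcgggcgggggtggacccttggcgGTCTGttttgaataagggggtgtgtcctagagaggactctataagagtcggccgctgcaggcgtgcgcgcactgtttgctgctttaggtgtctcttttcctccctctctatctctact
Id2: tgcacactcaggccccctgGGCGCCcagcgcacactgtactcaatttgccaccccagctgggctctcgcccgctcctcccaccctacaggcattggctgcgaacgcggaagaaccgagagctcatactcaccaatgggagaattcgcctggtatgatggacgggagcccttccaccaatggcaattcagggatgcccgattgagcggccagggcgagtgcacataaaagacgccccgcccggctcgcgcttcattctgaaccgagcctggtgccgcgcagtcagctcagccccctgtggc
Smad6: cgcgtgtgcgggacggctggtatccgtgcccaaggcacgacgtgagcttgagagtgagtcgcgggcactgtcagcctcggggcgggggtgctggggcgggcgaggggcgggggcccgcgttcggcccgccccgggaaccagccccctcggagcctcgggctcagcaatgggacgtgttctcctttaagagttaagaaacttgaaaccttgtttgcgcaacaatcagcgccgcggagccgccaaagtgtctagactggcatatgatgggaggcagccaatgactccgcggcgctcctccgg
The windows of Bmpr1a and Bmpr2 held GGCGCC at 1 place each, the window of Grem1 held all 3 elements, and that of Bmp4 held none. These matches describe letters and not binding, and a window of this length does not hold distant elements.

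Over all 11 BMP target genes listed, 9 were tested, 5 were called lower and 2 higher as deposited and also after median-ratio scaling. Of all tested genes, 58.5% were called lower and 8.66% higher as deposited, and 25.2% and 26.0% after this scaling. Dlx5, a homeobox gene of bone formation, fell most among them, from 32.3, 41.6 and 29.6 TPM to 6.57, 7.53 and 8.37 TPM (log2 fold change -2.06, limma adjusted p = 1.43e-05, and -1.73 after median-ratio scaling). Hey1 fell by 0.62 on the log2 scale (by 0.29 after median-ratio scaling). Atoh8 had -0.33 as deposited and -0.04 after median-ratio scaling and was called in neither (limma adjusted p = 0.0673 and 0.82). Hey1 and Atoh8 were named after their values were seen. Id1 and Id3 were thus the only target genes called higher in either scaling, while Smad6, Smad7, Id4, Hey1 and Dlx5 were called lower in both. Id4 lost its call after the length and GC correction (limma adjusted p = 0.0549) and Hey1 after quantile normalization (0.0684).

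The whole BMP list, with ligands, proteases, receptors, antagonists, SMADs and targets, held 66 genes, of which 36 were tested and the other 30 stayed below 1 TPM in all libraries. Of the 36, 25 were called lower and 2 higher as deposited, and 18 lower and 8 higher after median-ratio scaling. The shares over all tested genes were 58.5% lower and 8.66% higher as deposited, and 25.2% and 26.0% after this scaling. Without the 10 genes, 29 genes were tested, 21 were called lower and none higher as deposited, and 17 were lower and 5 higher after median-ratio scaling. Those 29 had a median log2 fold change of -0.66, against -0.33 over all tested genes. The lower genes of both counts include Gdf5, which passed the filter through its rGST libraries alone, so these counts are a description. When only genes with at least 1 TPM in all 6 libraries were tested, 23 genes of the whole list were called lower. Over all genes under this filter 6870 were called lower, in place of 7200. The 23 are not all among the 25, since Gdf5, Eng and Id4 were no longer tested and Pcolce2 gained a call (limma adjusted p = 0.0362).

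E proteins, the partners that ID proteins hold off DNA, were all called lower as deposited, as were 58.5% of all tested genes. Tcf3 was on the other side of 0 after median-ratio scaling. Tcf4 had a log2 fold change of -0.94 (limma adjusted p = 2.52e-05) as deposited and -0.60 after median-ratio scaling, and Tcf12 had -0.73 and -0.39. Tcf3 had -0.25 and 0.10 (limma adjusted p = 0.00954 and 0.189). The summed TPM of the 4 ID genes over that of the 3 E protein genes was 0.269, 0.294 and 0.309 in the rGST libraries and 1.22, 1.20 and 1.26 in the rSLURP1 libraries. This ratio does not depend on library scaling and was 4.22 times as high with rSLURP1, without overlap (exact permutation test, two-sided p = 0.1, the smallest possible). The ratio of Id1 to Smad6, a pair of BMP targets, was 2.99, 3.75 and 4.29 with rGST and 34.4, 33.3 and 25.1 with rSLURP1, 8.42 times as high. The ratio of Id1 to Id3 was 1.62 ± 0.085 with rGST and 1.47 ± 0.163 with rSLURP1 (n = 3 each, SD) and overlapped between treatments. These ratios were chosen after the levels were seen.

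**Figure D4:**
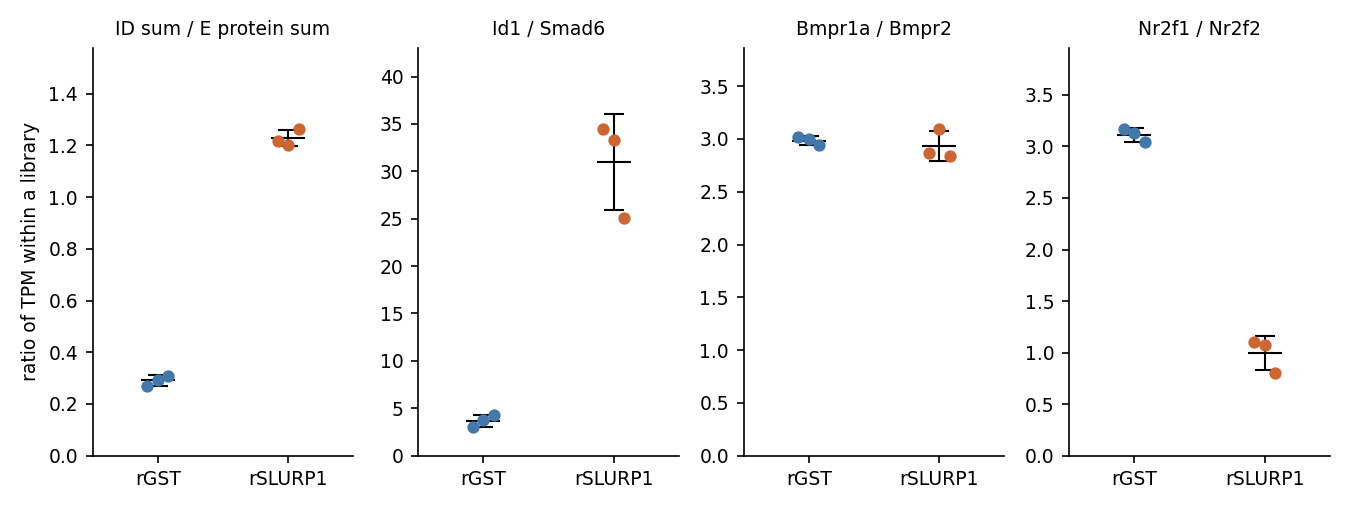
Ratios of TPM within each library for rGST (blue) and rSLURP1 (orange), with points for libraries and the mean and SD in black (n = 3 a treatment). The summed ID genes over the summed E protein genes and Id1 over Smad6 are higher with rSLURP1, Nr2f1 over Nr2f2 is lower, and Bmpr1a over Bmpr2 overlaps.

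Nr2f1 (ENSMUSG00000069171.14, chr13:78188973-78199757, minus strand) had the largest change of the 10 genes. It was at 43.6, 42.1 and 44.4 TPM with rGST and at 8.25, 7.84 and 6.29 TPM with rSLURP1, so that its rGST level was 5.81 times its rSLURP1 level. All 3 rSLURP1 libraries were far below all 3 rGST libraries, and the spread within a treatment was small beside the gap. The log2 fold change was -2.40 (limma, adjusted p = 1.64e-06, SE 0.096), -2.07 after median-ratio scaling and -1.99 after the length and GC correction. Counted from the lowest log2 fold change, it was gene 96 of the 12301 tested. An antisense gene, A830082K12Rik, overlaps the start of Nr2f1 on the other strand (chr13:78198017-78279391) and was at 7.25 to 8.63 TPM with rGST and at 1.94 to 2.57 TPM with rSLURP1. The sources do not state whether counting used the strand, so reads in the stretch that both genes share cannot be assigned with certainty.

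The Nr2f1 window at 1 of its 2 RefSeq start sites (chr13:78198824-78199123, minus strand), which lies in that shared stretch, held none of the 3 elements searched and is shown because its reads could belong to either gene.
Nr2f1: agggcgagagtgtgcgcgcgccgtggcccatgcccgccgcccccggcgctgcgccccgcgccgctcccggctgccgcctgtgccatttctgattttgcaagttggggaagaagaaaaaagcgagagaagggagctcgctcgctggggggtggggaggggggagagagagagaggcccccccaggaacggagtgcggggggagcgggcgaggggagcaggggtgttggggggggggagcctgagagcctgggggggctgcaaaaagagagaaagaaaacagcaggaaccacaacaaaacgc

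The relatives of Nr2f1 and the retinoid receptors that were tested were lower as well, though the call of Rxra depended on the scaling. Rxra was not called after median-ratio scaling (log2 fold change -0.15, limma adjusted p = 0.062) or quantile normalization (-0.11, 0.146). It stood at 0.0007 after the length and GC correction. Of 9 genes in this list, which counts Nr2f1 itself, 8 were tested and 8 were called lower as deposited. After median-ratio scaling 7 were lower, Nr2f1 among them, and none higher. The shares over all tested genes were 58.5% and 25.2% lower. The 8 include Rarb, which the filter kept for its rGST level. Nr2f2 (COUP-TF2), the closest relative, fell from 13.8, 13.5 and 14.6 TPM to 7.51, 7.27 and 7.83 TPM, a log2 fold change of -0.81 (limma adjusted p = 6.54e-05) and of -0.48 after median-ratio scaling. The ratio of Nr2f1 to Nr2f2 within a library went from 3.17, 3.13 and 3.04 to 1.10, 1.08 and 0.803, and Nr2f1 made up 32.5% ± 1.21 of the summed TPM of Nr2f1, Nr2f2 and Nr2f6 with rGST and 11.8% ± 1.35 with rSLURP1 (n = 3 each, SD). Rarb, which encodes retinoic acid receptor beta, was at 4.64, 6.73 and 3.83 TPM with rGST and at 0.06, 0.64 and 0.12 TPM with rSLURP1. It passed the filter through its rGST libraries alone, so its call carries no weight of its own. Rarg, the retinoic acid receptor gene with the highest level, fell from 97.4 ± 0.987 to 46.7 ± 0.682 TPM (SD, n = 3 each), for a log2 fold change of -1.04 (limma adjusted p = 1.19e-06).

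**Figure D5:**
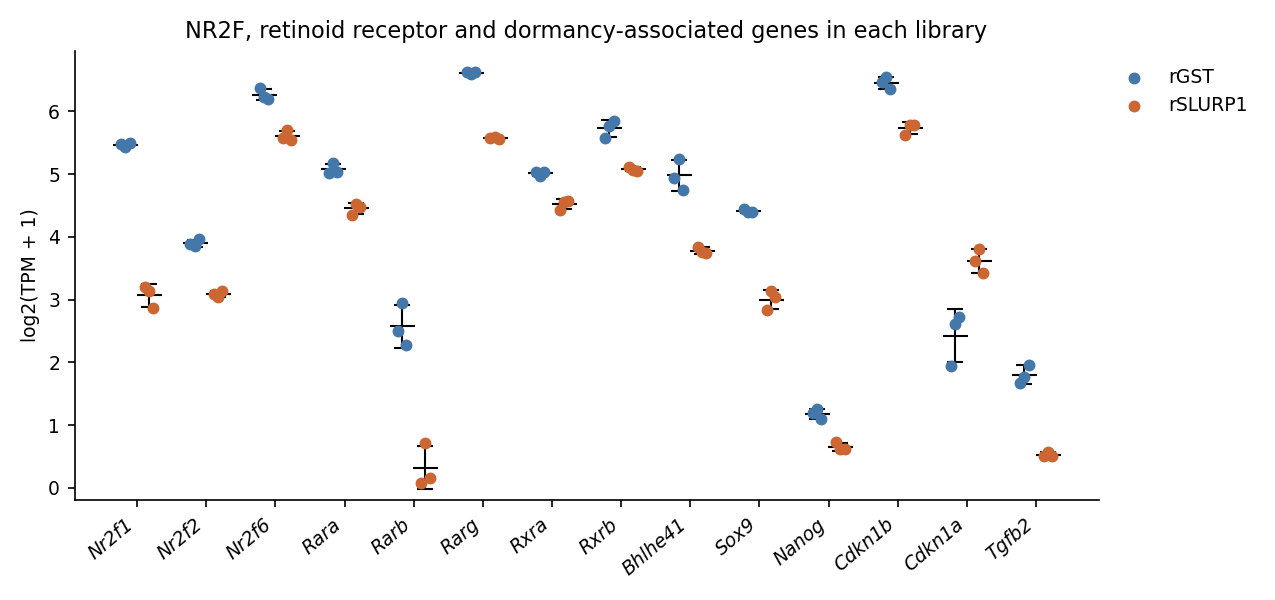
Levels of the NR2F, retinoid receptor and dormancy-associated genes in each library, as log2(TPM + 1), for rGST (blue) and rSLURP1 (orange), with the mean and SD in black (n = 3 a treatment). Nr2f1, Rarb, Sox9 and Tgfb2 are among the genes with the widest gaps, and Cdkn1a is called higher with rSLURP1.

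Among 12 genes linked to dormancy, 11 were tested, and 9 were called lower and 1 higher as deposited, where 58.5% of all tested genes were lower. The lower genes include Nr2f1 and Rarb, which were also counted in the list before. After median-ratio scaling 6 were lower and 2 higher, against 25.2% and 26.0% of all tested genes. Rarb, Tgfb2 and Nanog, 3 of the 9 lower genes, passed the filter through their rGST libraries alone, so these counts are a description. Sox9, which acts with NR2F1 in dormant cells, fell from 20.8, 20.0 and 20.0 TPM to 6.11, 7.81 and 7.21 TPM (log2 fold change -1.41, limma adjusted p = 1.42e-05). Tgfb2, a ligand known for inducing dormancy, was low, at 2.18, 2.42 and 2.90 TPM with rGST and at 0.43, 0.49 and 0.42 TPM with rSLURP1, and passed the filter through its rGST libraries alone. Cdkn1a, the cell cycle inhibitor p21, was the gene called higher as deposited, at 2.84, 5.10 and 5.64 TPM with rGST and 11.3, 12.9 and 9.72 TPM with rSLURP1 (log2 fold change 1.19, limma adjusted p = 0.00174). Cdkn1b, the inhibitor p27, went from 86.8 ± 5.81 to 52.3 ± 3.36 TPM (SD, n = 3 each), for a log2 fold change of -0.72 as deposited and -0.37 after median-ratio scaling (limma adjusted p = 7.57e-05 and 0.00233). Cdkn1a and Cdkn1b were named after their values were seen.

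The summed fibroblast and mesenchymal markers of cell state were lower with rSLURP1, while the epithelial and endothelial sums overlapped between treatments. The 8 epithelial genes summed to 192.8 to 200.7 TPM with rGST and 197.0 to 200.7 TPM with rSLURP1. Krt18 was at 195.6 ± 4.13 and 197.7 ± 1.68 TPM (SD, n = 3 each) and was not called as deposited (limma adjusted p = 0.712). With median-ratio scaling Krt18 was called higher (0.37 on the log2 scale, limma adjusted p = 1.07e-04). The label gives a mammary tumor cell, yet Epcam, Krt5 and Krt14 were at 0 in all 6 libraries, Cdh1 was at 0.07 TPM or less, and Krt18 was the only one of 8 epithelial genes above 2 TPM, while Krt8, the next, was at most at 1.66 TPM. The summed level of 8 fibroblast genes was 1160 to 1304 TPM with rGST and 76.7 to 87.5 TPM with rSLURP1, and all 6 that were tested were called lower. Col1a1, among these 6, passed the filter through its rGST libraries alone. The share of all tested genes called lower was 58.5% as deposited and 25.2% after median-ratio scaling. Dcn went from 581 ± 58.2 to 5.46 ± 0.379 TPM and Pdgfra from 196.9 ± 7.15 to 53.9 ± 3.32 TPM (SD, n = 3 each). The summed level of 7 mesenchymal genes was 1521 to 1674 TPM with rGST and 827 to 887 TPM with rSLURP1, with all 5 tested genes called lower as deposited and 2, Vim and Twist1, lower after median-ratio scaling. Among 6 immune genes, Ptprc was at 0.01 TPM or less, Adgre1, Itgam and Cd3e were at 0 in every library, and only Cd68 was above 1 TPM (3.77 ± 0.265 and 9.60 ± 1.61 TPM, SD, n = 3 each). Kdr was at 0 and Egfl7 was the only one of 5 endothelial genes above 1 TPM. The part of the fibroblast and mesenchymal genes in the values of Nr2f1, the antagonists and the co-receptors was not tested.

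Transcript length also moved with the fold changes. Across 12293 tested genes, longest transcript length and log2 fold change had a Spearman correlation of -0.25, a description over genes that share libraries. Id1 and Id3 have short transcripts, of 1160 and 1278 bases, and those of Bmpr1a, Bmpr2 and Bmp1 have 5956, 12899 and 5365 bases. With the length and GC correction, Id1 had a log2 fold change of 1.72 and Id3 of 1.86, larger than as deposited, whereas the values of Bmp1, Bmpr1a and Bmpr2 moved to 0.32, 0.11 and 0.18.

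In level, the order of the genes changed at the top. With rGST it was Bmp1, Bmpr1a, Nr2f1, Id1, Id3, Bmpr2, Smad6 and Id2, followed by Grem1 and Bmp4, and only Grem1 and Bmp4 overlapped as neighbours. With rSLURP1, Id1 came first and was followed by Bmp1 and Id3, whose libraries overlapped, then by Bmpr1a, Bmpr2 and Nr2f1, then by Id2 and Smad6, which also overlapped, and by Grem1 and Bmp4.

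The genes most like each of them were found by the smallest Euclidean distance between profiles of log2(TPM + 1) over the 6 libraries, each profile centred on its mean. For Id3 the nearest of all tested genes was Id1 (distance 0.292), followed by Atf4 (0.299). The nearest to Id1 were Smox (0.102), with 72.2, 71.3 and 70.8 TPM with rGST and 209.0, 227.0 and 196.9 TPM with rSLURP1, and Klf2 (0.122). Nr2f1 was nearest to Lbh (0.251), with 60.1, 60.1 and 54.6 TPM with rGST and 10.9, 12.1 and 9.87 TPM with rSLURP1, and to Irgm2 (0.254). Smad6 was nearest to Crebl2 (0.066) and Nrbp2 (0.143), and Bmpr1a to Prmt1 (0.024) and Uba1 (0.036). Bmpr2 was nearest to Lrfn1 (0.046) and Ctif (0.047), Bmp1 to Arhgap35 (0.030) and Brk1 (0.032), and Id2 to Mfsd3 (0.142) and RP23-103L13.9 (0.205). The distance takes in both the treatment difference and the spread within a treatment.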

How the data were processed

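RNAseq was analysed in 6 libraries of D2A1 spheroids, 3 per treatment, with groups taken from the sample titles. Reads were trimmed by the authors (Cutadapt), mapped to mm10 (STAR) and summed per gene (RSEM) (the submitters' notes give Cutadapt 1.18, STAR 2.5.2b and RSEM 1.3.3). The authors deposited TPM in 1 column per library. The annotation was GENCODE M12 per the methods, and GENCODE M21, on the same build, gave the coordinates, lengths and GC content used here. Library preparation is TruSeq mRNA in the labels but Smart-seq2 in the methods. Depth per library cannot be recovered from TPM and is unknown.

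Log2(TPM + 1) was tested with limma 3.58.1 in R 4.3.3 (eBayes with trend, no block) for 12301 genes (3 or more libraries at 1 TPM or above), and p-values were adjusted over all of them (Benjamini-Hochberg). In the text, ± gives the SD over 3 libraries. DESeq2, which the submitters' notes list for these libraries and the methods describe for other samples, needs counts and was not used. The thresholds of the methods, 0.05 and a fold change of 2, were kept. The script was tested on simulated data. The 10 genes and the gene lists were chosen with earlier results of these data known. From each list, up to 4 genes with a mean of at least 1 TPM over all libraries and the largest absolute log2 fold change are named, from each marker list the highest 2 by mean, and for each gene the 2 nearest profiles. Genes named beyond this were chosen after their values were seen, as were the ratios. The E protein, NR2F and dormancy lists were counted apart from the BMP list. Alternatives were scaling by median ratio or quantiles, 0.1 as pseudocount, testing every gene with any TPM or those at 1 TPM in all 6 libraries, the replicate number as a block, eBayes with no trend, and leaving out each library. A loess correction (span 0.3) for transcript length and GC content was added after the data were seen.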

Additional observations from a re-analysis of the deposited data

How the results depend on the processing

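Id1 and Id3 stayed higher and Smad6 and Nr2f1 lower, at an adjusted p of 0.05 or less in limma, in all 14 alternatives. Their log2 fold changes ranged from 1.496 to 1.87 for Id1, from 1.58 to 1.998 for Id3, from -1.48 to -0.85 for Smad6 and from -2.53 to -1.99 for Nr2f1. Id2 was called in none of them, and its sign turned in 5.

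The settings that moved the median of all genes to about 0 turned small decreases. Under scaling by median ratios, under quantile normalization and under the correction for length and GC, in this order, the log2 fold change was 0.17, 0.12 and 0.32 for Bmp1, 0.067, 0.059 and 0.11 for Bmpr1a, and 0.089, 0.15 and 0.18 for Bmpr2. In the same order it was 0.31, 0.37 and 0.26 for Fstl3, 0.15, 0.11 and 0.19 for Twsg1, 0.035, 0.093 and 0.12 for Smad1, 0.0997, 0.047 and 0.14 for Tcf3, and 0.052, 0.047 and 0.13 for Mapk14. Dand5 had 0.28 and 0.37 under the first and second, Axl 0.054 and 0.16 under the first and last, and Rxra 0.0007 under the last. Values called neither as deposited nor in the setting turned as well. They were 0.22, 0.34 and 0.25 for Id2 and 0.15, 0.26 and 0.27 for Acvr2b in the order above, 0.16 and 0.26 for Smad9 under the second and last, 0.071 for Atoh8 under the second and 0.24 for Dand5 under the last. With 1 library left out in turn, the values ranged from -0.17 to 0.20 for Id2, above 0 without rGST or rSLURP1 library 2, from -0.37 to 0.014 for Acvr2b, above 0 without rGST library 2, and from -0.072 to 0.026 for Fstl3, above 0 without rGST library 2 or rSLURP1 library 1. They ranged from -0.060 to 0.046 for Dand5, above 0 without rGST library 3, and from -0.029 to 0.055 for Smurf1, below 0 without rSLURP1 library 2. Of the 8 tested genes, 2 were lower under each of the 3 corrections of scale, length or distribution in place of 5, and 3, 2 and 5 were higher in the order above. Of all tested genes, 3094, 2905 and 2690 were lower in place of 7200, and 3198, 3111 and 3320 higher in place of 1065. The BMP list had 8, 6 and 9 genes higher in place of 2. By construction, these 3 settings set the median of all genes near 0. Over the other listed genes, 576 values kept direction and call, 20 lost the call, 11 gained it and 32 turned, 12 of these called neither before nor after.

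With the replicate block, 5 of the 8 genes were lower and 2 higher, and 24 genes of the BMP list were lower in place of 25. Eng lost its call under the block (adjusted p = 0.0615), with no filter (0.0536), under these 3 settings (0.123, 0.338 and 0.529) and without rGST library 1 or 3 or rSLURP1 library 1 or 3 (0.0863, 0.0879, 0.0662 and 0.0832). Pcolce2 gained a call without rGST library 1 (0.0269) or rSLURP1 library 1 (0.0321) and with the filter in all 6 libraries (0.0362), and Atoh8 without library 2 of rGST (0.0489) or of rSLURP1 (0.0497). The labels do not say that a number marks a shared culture or day. Deviations of same-numbered libraries from their treatment means correlated at -0.056, -0.034 and -0.061 across genes, and no library correlated best with its own number. Read depth is unknown, so the counting error of low values such as those of Bmp4, Grem1 and Id2 could not be assessed.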
